A study of Homo sapiens with 8 samples.

Results

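Cytosolic ribosomal proteins form the small (40S) and large (60S) subunits of the ribosome together with ribosomal RNA. Their genes are used in nearly every cell, and most of their mRNAs begin with a C followed by a run of pyrimidines, the 5′ terminal oligopyrimidine (5′TOP) start, through which translation of the whole group responds to growth signals. Their promoters often carry binding sequences of ubiquitous factors such as the ETS family and YY1.

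The 84 genes described here are the protein-coding genes of GENCODE release 44 whose symbols have the form of a cytosolic RPL, RPS, RPLP or RPSA name, out of 20033 protein-coding genes. They comprise 31 genes of the 40S subunit, 43 of the 60S subunit, the 3 P-stalk genes RPLP0, RPLP1 and RPLP2, and 7 paralogs (RPL3L, RPL7L1, RPL10L, RPL22L1, RPL26L1, RPL39L and RPS27L). The study prepared 8 bulk ATAC-seq libraries from wild-type HepG2, a human liver cancer cell line, after fixation with 0.1, 0.5, 1 or 5% formaldehyde (FA) followed by cryopreservation or flash freezing. ATAC-seq marks accessible DNA by inserting adapters with the Tn5 transposase, here loaded with custom barcodes. The values come from the peak list of 1 library, fixed with 0.1% FA and cryopreserved, which held 60628 peaks; the others were not analysed here, and no replicate of this library was analysed. No test between conditions was therefore run, and shares carry Clopper-Pearson (exact) 95% intervals, which cover counting error only. Intervals given for medians come from the ranks of the genes in this library and bound the median, not the spread of the genes. They treat the genes as independent and hold no error between samples. Of 8 hepatocyte marker genes 6 had a peak at the transcription start site (TSS), and ALB and AFP did not. Of 6 markers of other cell types 1 (MYOD1) had one. Among all protein-coding genes 61.5% had such a peak, so these few markers do not establish the cell type.

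The start sequences are shown first because most members share a type of start that few other genes have. Each line runs from 60 bases before the TSS to the first 20 transcribed bases, taken from RefSeq on GRCh38.p14. The capitals mark the first transcribed base and the unbroken run of C and T that follows it. RPS13 and RPL22 were among the members with the highest fold enrichment, RPL41 had the lowest, RPS6 is the 40S protein phosphorylated by S6 kinase, RPLP0 anchors the P-stalk, and RPS19 is the gene most often mutated in Diamond-Blackfan anaemia.
RPS13 (chr11:17077648-17077727, minus strand): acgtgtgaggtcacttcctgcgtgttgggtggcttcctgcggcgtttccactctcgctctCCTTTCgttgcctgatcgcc
RPL22 (chr1:6199576-6199655, minus strand): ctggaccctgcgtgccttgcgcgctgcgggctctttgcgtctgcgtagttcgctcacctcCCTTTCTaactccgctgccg
RPS6 (chr9:19380217-19380296, minus strand): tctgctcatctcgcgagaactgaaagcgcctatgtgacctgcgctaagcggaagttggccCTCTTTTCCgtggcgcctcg
RPLP0 (chr12:120201092-120201171, minus strand): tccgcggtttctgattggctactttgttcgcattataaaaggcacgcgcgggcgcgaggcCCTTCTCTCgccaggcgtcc
RPS19 (chr19:41860195-41860274, plus strand): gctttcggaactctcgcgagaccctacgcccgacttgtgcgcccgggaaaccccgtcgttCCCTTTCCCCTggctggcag
RPL41 (chr12:56116573-56116652, plus strand): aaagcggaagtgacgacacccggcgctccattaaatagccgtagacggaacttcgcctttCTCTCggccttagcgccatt
RPL22L1 (chr3:170870176-170870255, minus strand): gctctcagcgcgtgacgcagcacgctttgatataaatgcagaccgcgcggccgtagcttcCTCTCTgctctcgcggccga
The next sequences lack such a start at the annotated base: RPL19, the only gene of the 77 that are not paralogs to lack a TSS peak, the paralog RPL10L, which also lacked one, and the paralogs RPL7L1 and RPS27L, which had one.
RPL19 (chr17:39200223-39200302, plus strand): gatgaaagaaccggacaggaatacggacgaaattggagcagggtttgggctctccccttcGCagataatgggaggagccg
RPL10L (chr14:46651762-46651841, minus strand): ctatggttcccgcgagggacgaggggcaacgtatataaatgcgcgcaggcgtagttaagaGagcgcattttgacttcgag
RPL7L1 (chr6:42879556-42879635, plus strand): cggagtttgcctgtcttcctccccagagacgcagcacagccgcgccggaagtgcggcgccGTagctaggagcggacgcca
RPS27L (chr15:63157458-63157537, minus strand): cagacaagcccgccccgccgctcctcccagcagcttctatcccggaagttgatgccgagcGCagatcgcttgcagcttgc

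A C followed by at least 4 pyrimidines stood at the annotated TSS of 59 of the 84 ribosomal protein genes (70.2%, interval 59.3 to 79.7%), against 4.59% of all 20033 protein-coding genes and 4.68% of the 8871 other protein-coding genes of similar GC content. Similar GC means within 52.6 to 65.3% over the 500 bp on either side of the TSS, the span between the 10th and 90th percentiles of the members. All 3 P-stalk genes, 24 of 31 40S genes and 31 of 43 60S genes had this start. Among the 7 paralogs only RPL22L1 had it. The annotated base is a database entry and not a measured start. With a start allowed within 10 bp of it, 76 members (90.5%) qualified, against 33.6% of all protein-coding genes. The 8 members without one even then included RPL10L, RPL17, RPL27, RPL39L, RPL7L1, RPS27L and RPS4X. RefSeq listed 67 of the members, 59 of them with the same start as GENCODE, and 43 of the 67 (64.2%) had the pyrimidine start at the RefSeq base, against 4.07% of 35116 RefSeq promoters.

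A peak overlapped the 1000 bp on either side of the TSS in 80 of the 84 ribosomal protein genes (95.2%, interval 88.3 to 98.7%). Among all protein-coding genes it was 61.5% (12313 of 20033), and among those of similar GC 67.3% (5969 of 8871). Every 40S gene (31 of 31) and every P-stalk gene (3 of 3) had a TSS peak, as did 42 of 43 60S genes. The paralogs stood apart with 4 of 7. Without them the share was 98.7% (76 of 77, interval 93.0 to 99.97%). The members also had peaks where GC content was low. Between 45 and 50% GC, 5 of 5 members had a TSS peak, against 29.9% of other protein-coding genes. Between 50 and 55% GC it was 11 of 12 members against 48.7%. Nearer the middle of the members' range, between 55 and 60% GC, it was 36 of 37 members against 65.5%.

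The 4 members without a TSS peak were RPL19, RPL3L, RPL10L and RPL39L. RPL19, a 60S subunit gene on chromosome 17 (TSS 39200283, plus strand), had its nearest peak from 39197599 to 39197789, with the summit 2594 bp upstream of the TSS and a fold enrichment of 10.8. RPL3L, which replaces RPL3 in skeletal and heart muscle, had its nearest summit 4776 bp upstream, with a fold of 17.4. RPL39L and RPL10L, both known for expression in testis, had their nearest summits 11349 and 790635 bp upstream. The other 4 paralogs had a TSS peak. They were RPS27L, a p53 target gene (fold 23.7), RPL26L1 (19.9), RPL22L1 (19.2) and RPL7L1 (15.8).

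The fold enrichment, which is the height of the peak at its summit over the local background as the peak caller gave it, did not set the members apart among genes with a TSS peak. Genes without a peak have no such value. Fold, width and summit values therefore cover 80 of 84 members but only 5969 of 8871 similar-GC genes. The median of the members was 19.03 (95% interval from ranks 17.9 to 19.95, quartiles 15.7 and 22.4, range 6.09 to 35.0). It was 19.6 in genes of similar GC with a TSS peak (quartiles 14.5 and 24.3) and 17.9 in the 12313 protein-coding genes that had such a peak. Of the 80 members 37 lay above the median of similar-GC genes, and 54 (67.5%) lay between the quartiles of those genes. The interval of the member median includes the median of the similar-GC genes. Above the 90th percentile of similar-GC genes (28.0) lay 5 members (6.25%), and below their 10th percentile (9.98) lay 2 (2.5%). The medians were 19.1 in 40S genes, 18.8 in 60S genes, 14.3 in the P-stalk genes and 19.5 in the 4 paralogs with a peak.

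**Figure D1:**
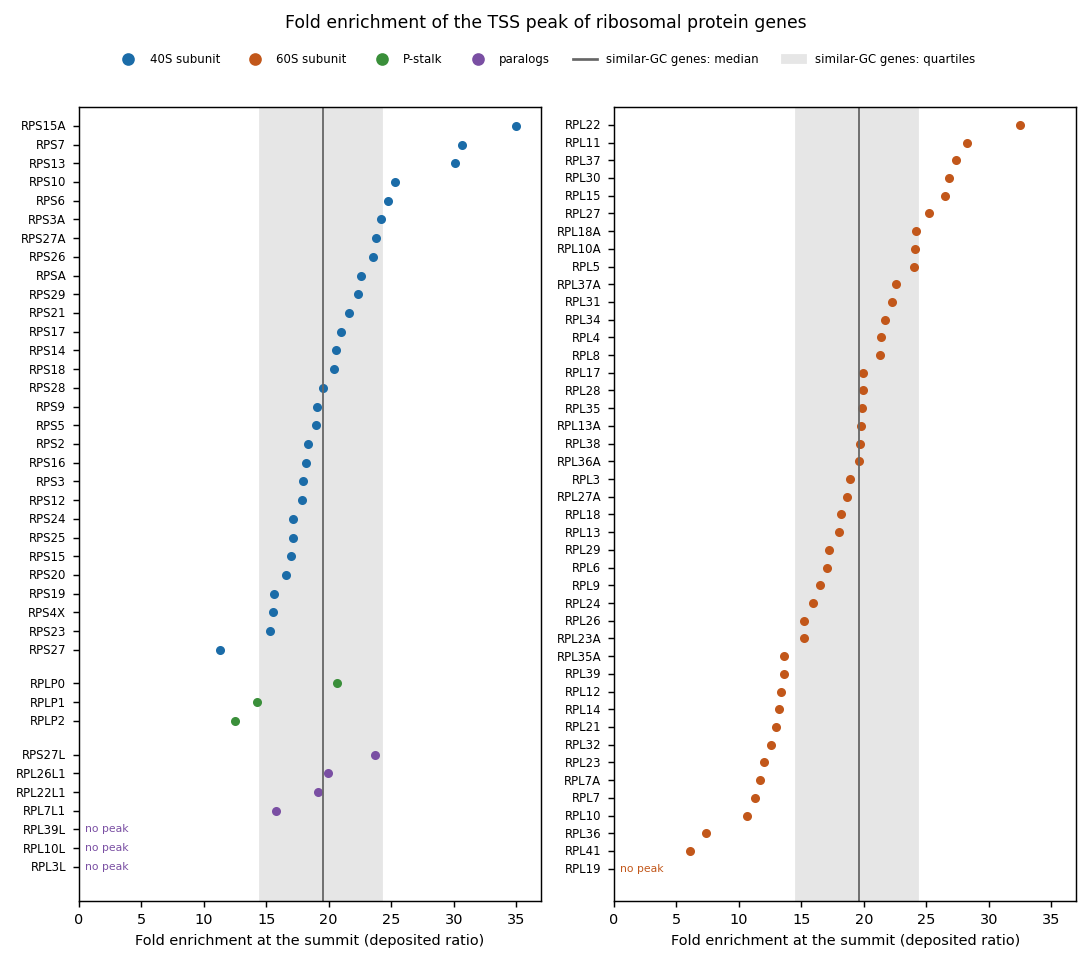
Fold enrichment of the strongest TSS peak (x axis, deposited ratio without unit) of the ribosomal protein genes reported by name (rows), coloured by subunit; the grey band and line are the quartiles and median of other protein-coding genes of similar GC. The 40S genes run from 11.3 (RPS27) to 35.0 (RPS15A) and the 60S genes from 6.09 (RPL41) to 32.5 (RPL22), with 4 genes without a peak.

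The highest fold among the members was 35.0 at RPS15A, a 40S gene on chromosome 16, where 112 fragments covered the summit. RPL22, a 60S protein known for its role in T-cell development, had 32.5 and 80 fragments. RPS7, a 40S protein that can bind MDM2, had 30.7 and 92 fragments. Both subunits were therefore found at the top of the list. RPS13, another 40S gene, had a fold of 30.1, and RPL11, a 60S protein that binds MDM2 when ribosome assembly is disturbed, had 28.3. RPL37, also a 60S gene, had 27.4.

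The lowest folds belonged mainly to 60S genes, which made up 42 of the 80 members with a peak. The medians of the subunits were close, with 18.8 in 60S and 19.1 in 40S genes. RPL41, which encodes the smallest ribosomal protein, had a fold of 6.09, a width of 116 bp and 22 fragments at the summit. RPL36 had 7.34 and 26 fragments. RPL10, a late-joining 60S protein near the peptidyl transferase centre, had 10.6. These peaks were the only member peaks that a −log10 q of at least 20 removed. RPL7 followed with a fold of 11.3, RPS27 with 11.3 and RPL7A with 11.7. RPS27 was the only 40S gene among the 6 lowest.

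Members known from disease or signalling were spread over the range. RPL5, which joins RPL11 and 5S RNA in a complex that binds MDM2, had a fold of 24.02 with the summit 46 bp upstream of the TSS. RPS6 had 24.8 with the summit 62 bp upstream, and RPSA, also known as the laminin receptor, had 22.5 with the summit 126 bp upstream. RPS14, whose loss underlies the anaemia of the 5q- syndrome, had 20.6. RPS19 had 15.6, and its 2 peaks had equal fold. Of the P-stalk genes, RPLP0 had 20.6, RPLP1 had 14.3 and RPLP2 had 12.5, so the stalk genes did not share a level.

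The number of fragments at the summit, solved from the deposited fold and p, had a median of 48 in the members (range 20 to 112) and 47 in similar-GC genes. The local background had a median of 1.47 fragments in members and 1.38 in similar-GC genes. Of the 80 member peaks 12 rested on at most 30 fragments. The 50 bp at the summit occurred once in the genome for 79 of 80 members. The exception was RPS29, with 3 copies, and placement of reads between them was not tested.

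The median peak width of the members was 288.5 bp, with quartiles of 226.25 and 337 bp and extremes of 116 and 598 bp, against 276 bp in similar-GC genes (quartiles 211 and 364). The 95% interval from ranks of the member median, 266 to 306 bp, includes the value of the similar-GC genes. The widest were RPL26 (598 bp), RPL23A (545 bp) and RPS29 (512 bp). RPL26 is a 60S protein that also binds the p53 mRNA, and RPL23A lies at the exit of the nascent peptide tunnel. The narrowest were RPL41 (116 bp), RPL32 (125 bp), RPS23 (168 bp) and RPL21 (170 bp). Of these widest peaks, RPL26 and RPL23A had folds of 15.2 and 15.2, and RPS29 had 22.4. The folds of the narrowest were 6.09 in RPL41, 12.6 in RPL32, 15.3 in RPS23 and 12.9 in RPL21. A relation between width and fold was not tested.

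With the strongest peak of each gene, the share of summits upstream of the TSS was higher in members than in similar-GC genes. The shares in the related lists were also higher, by the least in mitochondrial ribosomal protein genes, and they carry no interval. The summit of the strongest peak lay upstream of the TSS in 79 of 80 members (98.8%), against 84.3% of similar-GC genes and 83.99% of the whole protein-coding set. In the related lists described below the share was 100% of 16 genes with 5′TOP mRNAs, 94.6% of proteasome genes and 94.4% of ribosome biogenesis genes. It was 93.1% in initiation factors and 88.5% in mitochondrial ribosomal protein genes. The median summit lay 77 bp upstream (quartiles −136.5 and −57 bp) in members and 67 bp upstream in similar-GC genes, and the interquartile range was 79.5 bp against 92.0 bp. The median distance regardless of side was 80 bp in both. Between 150 and 20 bp upstream lay 61 member summits (76.2%), against 60.6% in similar-GC genes. In the related lists this share ran from 43.8% (5′TOP mRNAs) to 75.7% (proteasome). These limits were chosen after the positions had been seen. The only member summit downstream was that of the paralog RPL7L1, at 271 bp. All 76 members other than paralogs with a TSS peak had the summit of the strongest peak upstream. RPL17 (16 bp), RPLP1 (20 bp) and RPL12 (24 bp) were closest to the TSS. With the peak nearest to the TSS instead, 76 of the 80 members had the summit upstream. RPL21, RPL32, RPL39 and RPL7L1 then had it downstream, and the upstream share of similar-GC genes was not computed for that choice.

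**Figure D2:**
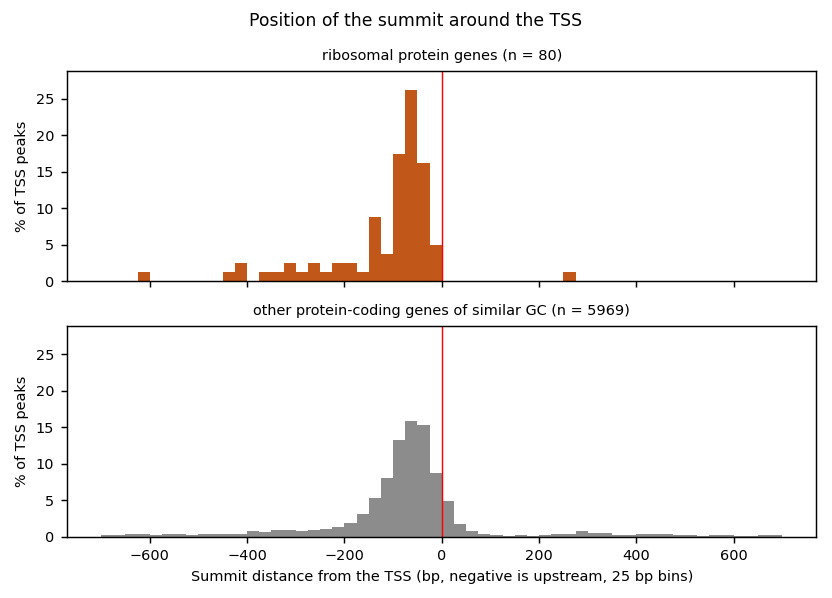
Share of TSS peaks (y axis, %) by the distance of the summit from the TSS (x axis, bp, 25 bp bins, negative is upstream) in the ribosomal protein genes (upper) and in other protein-coding genes of similar GC (lower, summits beyond 700 bp not drawn). The strongest peak of each gene is used, and of the 80 member summits 79 lie left of the red line at the TSS, against 84.3% in the lower panel.

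The farthest upstream were RPL7 (622 bp), RPL39 (438 bp), RPS27A (413 bp) and RPLP2 (403 bp). The peaks of RPL7 and RPS27A also lay at the TSS of RDH10 and CLHC1, so they cannot be assigned to the member alone. RPS27A encodes a fusion of ubiquitin with a 40S protein. In all, 14 members (17.5%) had the summit of the strongest peak more than 200 bp upstream, against 13.0% of similar-GC genes. In several of these a second peak lay closer to the TSS. More than 1 TSS peak was present in 14 members (17.5%, against 24.01% of similar-GC genes), and in 8 of them the strongest peak was not the nearest one (10.0% of the 80, interval 4.42 to 18.8%, against 7.34% of similar-GC genes). These 8 were RPL7, RPL21, RPL32, RPL39, RPLP2, RPS14, RPS23 and RPS27A.

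In RPS14 the stronger peak had a fold of 20.6 with the summit 336 bp upstream, and a second peak with a fold of 9.85 had its summit 8 bp upstream. In RPS27A the folds were 23.8 at 413 bp, in the peak shared with CLHC1, and 13.2 at 24 bp upstream. In RPL39 they were 13.6 at 438 bp upstream and 9.47 at 1 bp downstream of the TSS. The upstream peak was the stronger of each pair. RPS23 had 15.3 at 309 bp and 8.07 at 44 bp upstream. RPL32 had 12.6 at 292 bp upstream and 9.46 at 28 bp downstream, and RPL21 had 12.9 at 272 bp upstream and 7.69 at 28 bp downstream. RPLP2 was the only member with 3 TSS peaks, with folds of 7.39, 12.5 and 9.11 at 703, 403 and 113 bp upstream. With the peak nearest to the TSS in each gene, 74 of 80 members (92.5%) had a peak that covered the TSS itself, against 85.9% of similar-GC genes, and with the strongest peak 68 (85.0%) did, against 79.9%.

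**Figure D3:**
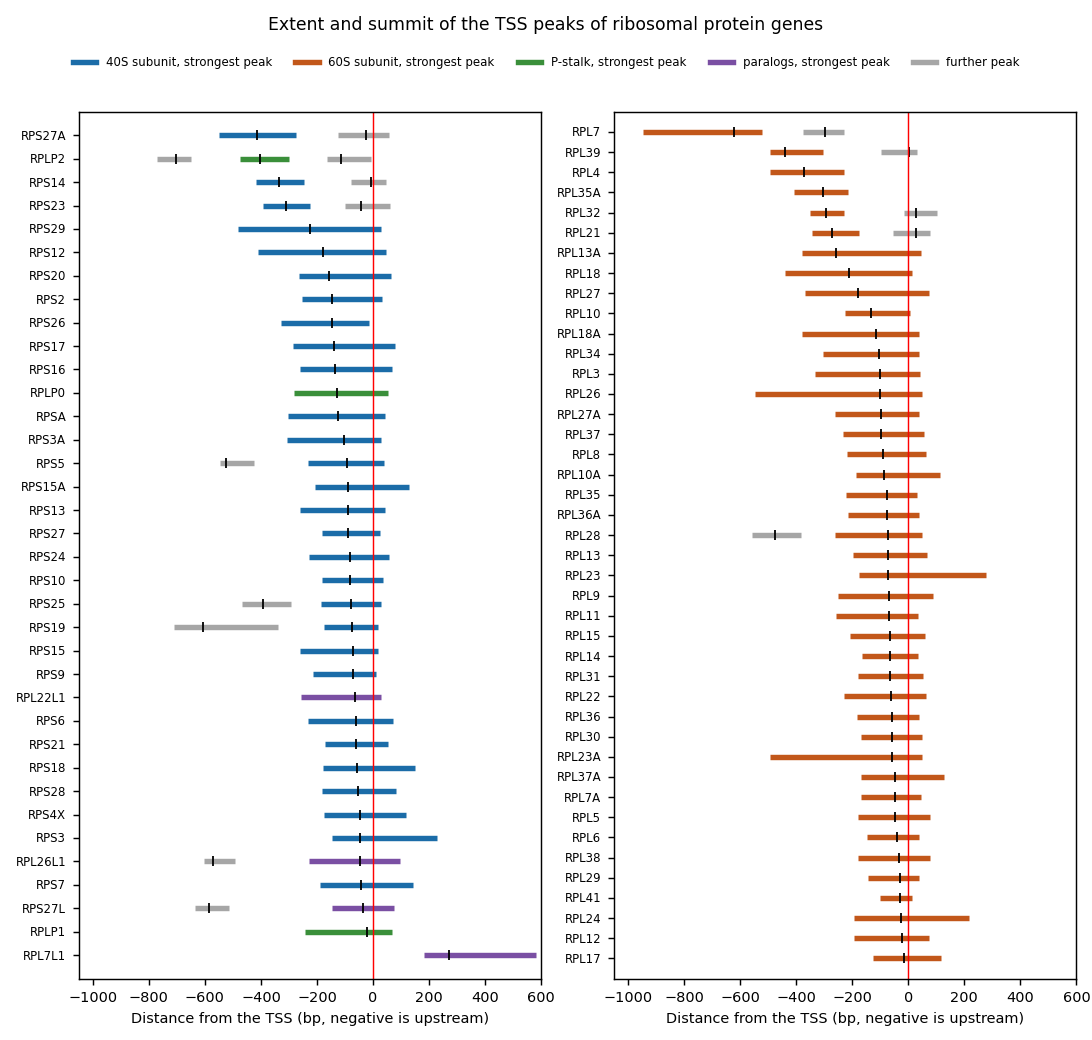
Extent of every TSS peak of the ribosomal protein genes reported by name, by distance from the TSS (x axis, bp, negative is upstream, red line at the TSS); coloured bars are the strongest peak of each gene, grey bars further peaks and black ticks summits. RPL7L1 alone has its strongest peak downstream, and 8 genes have a weaker peak nearer to the TSS than the strongest one.

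Of the 80 member peaks 17 (21.2%) also lay at the TSS of another protein-coding gene, against 25.9% in similar-GC genes, and such peaks cannot be assigned to 1 of the 2 genes. Neighbouring genes that shared such a peak included NKIRAS1 with RPL15 (fold 26.4), CLHC1 with RPS27A, ZWILCH with RPL4 (21.3), VPS52 with RPS18 (20.4), MED22 with RPL7A, LIAS with RPL9 (16.5), TRAPPC4 with RPS25 (17.1) and RDH10 with RPL7. Others were readthrough genes that start with the member itself, such as RPS10-NUDT3 with RPS10. The median fold was 19.6 in the 17 shared peaks and 18.97 in the 63 others.

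Pyrimidine start and fold were set side by side within the members. The 59 members with a pyrimidine start all had a TSS peak, with a median fold of 18.7, and 21 of the 25 others had one, with a median of 19.9. The 4 members without a peak all lacked the pyrimidine start at the annotated base, and 3 of them were paralogs. Without the paralogs, 58 of 58 members with the start and 18 of 19 without it had a TSS peak. In the similar-GC genes a TSS peak was present in 71.1% of the 415 with a pyrimidine start and in 67.1% of the 8456 without.

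Motifs of 10 factors were searched as fixed letters on both strands, first within 50 bp of the summit and then from 250 bp before to 50 bp after the TSS. The motif with the highest share in members relative to other genes was TCTCGCGA, an element that is recognised by ZBTB33 (Kaiso). It was present within 50 bp of 9 of 80 member summits (11.2%), against 1.49% of the TSS peaks of all protein-coding genes and 1.78% of those of similar GC. In the promoter window it was present in 15 of 84 members (17.9%, interval 10.4 to 27.8%), against 1.73% of all protein-coding genes and 2.20% of those of similar GC. All occurrences in the members lay upstream, from 238 to 24 bp before the TSS, with a median of 52 bp. Where the letters are followed by GA, the same site is matched on both strands.

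The sequences around this element are shown for 5 members from RefSeq on GRCh38.p14, with the matched letters in capitals, because they place it in relation to the summit. The centre of the element lay 5 bp downstream of the summit in RPL7A, 27 bp upstream of it in RPL12, 1 bp upstream in RPS28, 30 bp downstream in RPS19 and 14 bp downstream in RPS6. These 5 are among the 9 members with the element within 50 bp of the summit. In other members it lay farther away, such as 77 bp downstream in RPL27A, 97 bp upstream in RPL10 and 137 bp downstream in RPL4. The largest distance was 584 bp.
RPL7A (chr9:133348155-133348194, plus strand): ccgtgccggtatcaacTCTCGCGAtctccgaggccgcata
RPL12 (chr9:127451438-127451477, minus strand): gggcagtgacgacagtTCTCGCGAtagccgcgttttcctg
RPS28 (chr19:8321420-8321459, plus strand): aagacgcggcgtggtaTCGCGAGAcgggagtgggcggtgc
RPS19 (chr19:41860190-41860229, plus strand): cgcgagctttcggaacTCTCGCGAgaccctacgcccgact
RPS6 (chr9:19380265-19380304, minus strand): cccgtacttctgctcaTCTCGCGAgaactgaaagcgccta
RPS19 held a further copy 68 bp before the TSS. The other members with the element in the promoter window included RPL4, RPL10, RPL10A, RPL17, RPL26, RPL27A, RPS15 and RPS15A. Fold did not follow the element: the 15 members with it had a median fold of 17.6 (range 10.6 to 35.0), and the 65 other members with a peak had a median of 19.2.

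The ETS letters CCGGAAG were present in the promoter window of 30 members (35.7%, interval 25.6 to 46.9%), against 14.1% of all protein-coding genes and 19.2% of those of similar GC, and within 50 bp of 16 member summits (20%), against 11.05% and 14.04%. Their median position was 56 bp before the TSS. RPL19, without a peak, was among the members that held them. The YY1 letters AAGATGGC were present in 11 members (13.1%), against 4.04% and 5.08%. In 10 of these they lay within the transcribed 50 bp, and within 50 bp of the summit the share was 1.25% in members and 1.47% in similar-GC genes.

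The SP/KLF letters GGGCGG were less frequent at member summits, with 26 of 80 (32.5%, interval 22.4 to 43.9%), against 51.1% of the TSS peaks of all protein-coding genes and 44.8% of those of similar GC. In the promoter window the share was 59.5% in members and 61.7% in similar-GC genes. The NFY letters CCAAT were present at 17.5% of member summits and 27.6% of similar-GC summits, and in 32.1% of member promoter windows and 38.7% of similar-GC ones. The MYC/MAX E-box letters CACGTG were present at 2.5% of member summits and 4.99% of similar-GC summits, and in 7.14% of member promoter windows and 10.2% of similar-GC ones. The letters of NRF1, CREB/ATF and HNF4A were present at none of the 80 member summits, for which the exact interval allows shares of up to 4.51%, and at 2.66%, 2.50% and 0.235% of similar-GC summits. At 80 summits such differences were not detectable. In the promoter window NRF1 and CREB/ATF letters were present in 4 members each (4.76%), against 3.47% and 3.34% of similar-GC genes, and HNF4A letters in none, against 0.372%.

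The TATA box letters TATAAA were present in the promoter window of 8 members (9.52%), against 9.71% of all protein-coding genes and 7.25% of those of similar GC, and within 50 bp of 4 member summits (5%), against 1.07% and 0.988%. The shorter letters TATA, on the transcribed strand between 40 and 21 bp before the TSS, were looked for after the sequences had been seen. They were present in 16 members (19.05%), among them RPLP0, RPL3, RPL10, RPS2, RPS3 and RPS27, against 7.92% of all protein-coding genes and 6.46% of those of similar GC. In the RPLP0, RPL22L1 and RPL10L sequences printed above they can be read before the capitals, within tataaa. RPL10L had no TSS peak.

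**Figure D4:**
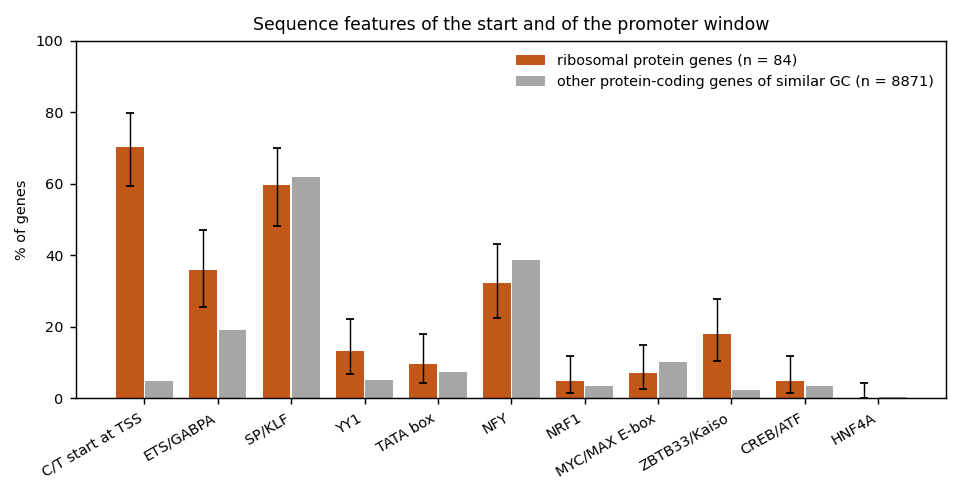
Share of genes (y axis, %) with a pyrimidine start at the TSS and with the letters of 10 motifs from 250 bp before to 50 bp after the TSS, in the 84 ribosomal protein genes (orange, with exact 95% intervals) and in other protein-coding genes of similar GC (grey). The pyrimidine start (70.2% against 4.68%), the ETS letters (35.7% against 19.2%), YY1 (13.1% against 5.08%) and ZBTB33/Kaiso (17.9% against 2.20%) have intervals above the grey bars.

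Most ribosomal protein genes were short, with a median length of 5548 bp against 25515 bp in similar-GC genes. Peaks inside the gene but outside the TSS window were found in 18 members (21.4%), against 47.5% in similar-GC genes, a difference that cannot be told apart from gene length here. RPL37A had the most, with 5 such peaks, followed by RPS9 and RPL36 with 4 each. A further peak within 10 kb was present for 50 members (59.5%), against 45.4% of similar-GC genes. Many members host small nucleolar RNA genes, which guide the modification of ribosomal RNA, in their introns. Such genes lay inside 28 members (33.3%, 60 genes in all), with 5 in RPL4, against 1.28% of all protein-coding genes.

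The genome also holds many processed copies of ribosomal protein mRNAs. GENCODE lists 1600 pseudogenes of 78 of the members, led by RPL21 with 133 and RPL23A with 91. A peak lay at the start of 52 of them (3.25%, interval 2.44 to 4.24%), against 4.56% of all 15233 pseudogenes. Their median fold was 9.18, about the level of the lowest member peaks, against 11.9 in all pseudogenes with a peak. The highest was RPS27P30 (23.8). A summit within 100 bp of the annotated start was found for 3 of the 52, against 52 of the 80 members. These pseudogenes thus seldom had a peak, as was the case for pseudogenes in general. The position of the summit was not computed for all pseudogenes.

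Genes with related functions were compared through lists chosen for their roles. Ribosomal protein genes whose names fall outside the rule also had a TSS peak, among them RPL36AL (25.3), FAU (17.2) and RACK1 (5.83). All 78 mitochondrial ribosomal protein genes had one, with a median fold of 20.2, led by MRPS9 (42.6) and MRPL50 (32.3). Only 5 of these 78 (6.41%) had a pyrimidine start. In contrast, 14 of 16 (87.5%) genes of translation factors and related proteins with known 5′TOP mRNAs had it, as the choice of that list implies, and all 16 had a TSS peak, led by EIF3F (29.3) and NACA (25.8).

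Among the translation initiation factors 29 of 30 had a TSS peak, with a median fold of 19.2, and the exception was EIF3C. All 36 ribosome biogenesis genes had one, with a median of 19.3 and the highest fold at RRN3 (35.0), a factor of RNA polymerase I, and LTV1 (28.8). Of the 39 proteasome genes 37 had one, with a median of 23.6, and PSMB11 and PSMA8, known from thymus and testis, had none. In all of these lists most genes thus had a TSS peak. The share with a pyrimidine start ranged more widely, from 1 of 39 proteasome genes (2.56%) and 3 of 36 ribosome biogenesis genes (8.33%) to 8 of 30 initiation factors (26.7%) and 3 of 4 ribosomal protein genes outside the rule (75%).

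**Figure D5:**
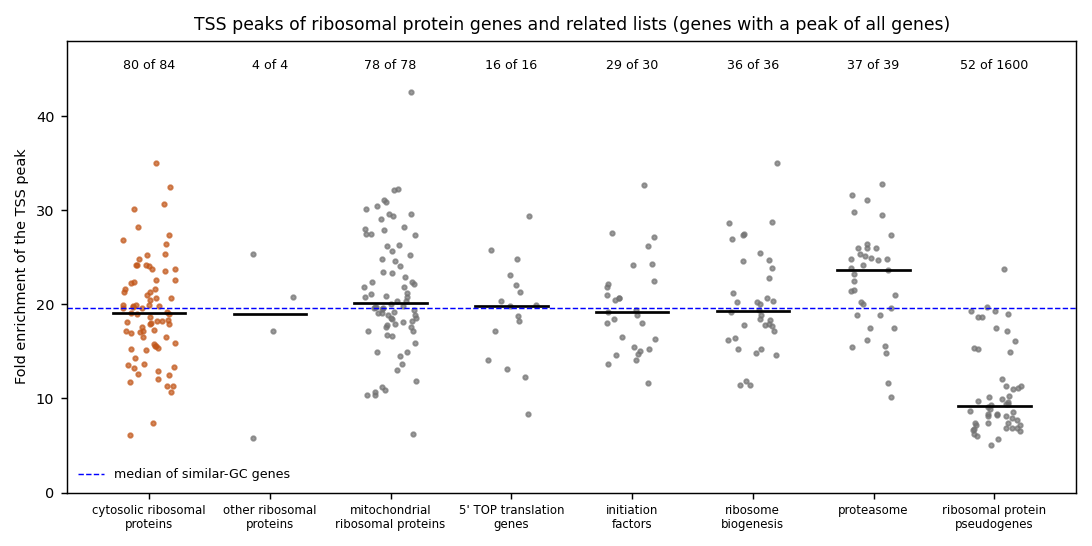
Fold enrichment of the TSS peak (y axis) of each gene with a peak in the cytosolic ribosomal protein genes (orange) and in related lists (grey), with the median as a black line, the number of genes with a peak of all genes above, and the median of similar-GC genes as a dashed line. Medians run from 9.18 in the pseudogenes to 23.6 in the proteasome genes.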

How the data were processed

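ATAC-seq peaks of 1 HepG2 library (0.1% FA, cryopreserved) were used. Per the study's methods and sample records, the authors removed adapters with cutadapt (pairs with mapq > 2), aligned to GRCh38 and ran MACS2, for which no version was found in the sources. The deposited ratio is the fold enrichment at the summit, and MACS2 also gave the −log10 p-value and −log10 q-value that the authors deposited. The deposited score follows the q-value and was not used. Peak names refer to short fragments, so the list may rest on a subset of the library, and the sequencing depth is unknown. A shift of read ends for the insertion offset of Tn5 was not described.

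A TSS peak overlapped the 1000 bp on either side of the canonical TSS of GENCODE 44; of several, the one with the highest fold was taken. Summit fragments were solved from fold = (fragments + 1)/(background + 1) and the Poisson p, and were whole within 0.01 for all 80 member peaks. The calculation was tested on simulated data. Scripts ran under Python 3.11.15 with scipy 1.17.1, pandas 2.3.3, numpy 2.4.6 and matplotlib 3.10.9. Named genes were every member without a peak, those at the extremes of fold, width and position, the P-stalk genes, the paralogs and selected disease genes, and in related lists the 2 highest and those lacking a peak. The members and lists were chosen with earlier results of these data known. Alternatives were other windows, q limits, starts, peak choices and GC windows. A few genes are not reported by name here; they are included in the counts and medians.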

Additional observations from a re-analysis of the deposited data

How the results depend on the processing

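Of 66 recomputed values 49 stayed within the 95% interval of the value reported and 17 moved outside it; none changed sign. The share of members with a TSS peak was 98.7% without the 7 paralogs and stayed within its interval in the 500 bp and 2500 bp windows (80 and 81 of 84), with the summit inside the window, at −log10 q limits of 5 and 20 (80 and 77 of 84) and at the start of any transcript. The median summit distance was −61 bp from the start of any transcript, where 75 of 80 summits lay upstream; the cause was not tested. The share of members with a pyrimidine start was 90.5% within 10 bp of the annotated base. The pyrimidine start at the RefSeq base and the pseudogene share without peaks at a protein-coding TSS (2.94%) were added after the data had been seen. The members' median fold and width stayed within their intervals in every alternative run. For similar-GC genes, GC taken within 250 bp gave a share with a TSS peak of 65.4% and a median width of 271 bp, and GC within 1000 bp a median fold of 19.3 and a median width of 284 bp, all just outside their intervals. Motif shares changed with the window because the windows differ in length and position.

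With 1 library and no replicate, no value carries an error between samples. The −log10 q limit of 20 removed the peaks of RPL41, RPL36 and RPL10, which had the 3 lowest folds among the members. Accessibility below the depth of this list was not detectable. No paired analysis was possible because the result comes from no test.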
